A study of Mus musculus with 8 samples.

Results

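The mouse genes named Zfp with a number from 600 to 999 were followed on arrays of mouse embryonic stem cells before and after transcription was blocked. They were found by symbol: each array feature that is no control was named through its RefSeq accession, and a gene was kept if its symbol is Zfp followed only by such a number. The array holds 149 of these genes, with 227 probes, among 20972 named symbols, and 139 of them could be tested. Of the 10 left out, 9 (Zfp616, Zfp641, Zfp651, Zfp697, Zfp735, Zfp775, Zfp827, Zfp831 and Zfp872) were not well above background on all arrays of any group, and Zfp939 had no value on untreated replicate 2. All cultures, untreated ones included, grew with 250 nM PD173074, which inhibits FGF receptors, and with LIF, which keeps such cells pluripotent. The untreated group has 3 arrays of cells taken at 0 h. The vehicle group has 2 arrays and the 4OHT group 3 arrays, all from cells given 5 µM actinomycin D, which blocks transcription. After 30 min these cells received ethanol or 250 nM 4-hydroxytamoxifen (4OHT), and RNA was taken 4 h later. Neither the target of 4OHT in these cells nor their strain or line is given in the labels. The titles of the untreated arrays also name actinomycin D in short form, so that every comparison with untreated rests on the treatment label and the description. The title of the series names Erk, a kinase that FGF receptors activate, and mRNA degradation, and the question here is how much of each Zfp mRNA was left with no new synthesis.

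Zfp genes code for zinc finger proteins, in most cases with tandem C2H2 fingers that bind DNA. Many carry a KRAB domain, which recruits Trim28 and through it the histone methyltransferase Setdb1, HP1 proteins and DNA methylation. In embryonic stem cells this system silences retroelements. The genes lie in clusters of related copies that arose by duplication, and mRNAs of zinc finger transcription factors are known for short half-lives.

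Levels are log2 of the processed signal minus the 75th percentile of the same array, so 0 is that percentile itself. Differences are between group means of these levels, given with the standard error (SE) of a limma fit over all 8 arrays. A gene is called when its p, adjusted over all 28493 features by the Benjamini-Hochberg method, is under 0.05. The fixed input was a mass of total RNA, and that percentile lay at 333, 457 and 405 in untreated cells, at 166 and 205 after vehicle, and at 209, 180 and 182 after 4OHT. A level therefore gives a gene's signal relative to the rest of its array. A second scale, set on 8 spiked-in E1A control probes, is given where it changes a direction, except for the cell type markers below. The median of all features against untreated was 0.40 with vehicle on the percentile scale and −0.88 on the spike-in scale. In bulk RNA, fewer cells with a transcript and less of it per cell cannot be told apart. All 4OHT arrays lie on 1 slide and the other arrays on another, and vehicle and untreated arrays lie in different rows of theirs, so slide or row and treatment cannot be told apart. All 12 embryonic stem cell markers were well above background on the untreated arrays (median level 5.78), against 5 of 8 feeder fibroblast markers (median −3.24, with Lum on no array). All 7 primitive endoderm markers were also above background there (median −3.49, with Lama1 at 5.46). Their summed signal, as a multiple of the 75th percentile, was 40.0 to 52.5 on untreated arrays, 68.9 to 80.6 with vehicle and 84.1 to 105 with 4OHT, mostly from Lama1 (levels of 5.46, 6.21 and 6.58 in the 3 groups). On the percentile scale Dab2 was also higher (−4.38, −3.20 and −3.19) and Gata4 was at −2.42, −2.60 and −2.70. Gata6, Sox17, Sox7 and Foxa2 were well above background on the untreated arrays alone. Spike-in values of these markers are not given. The 75th percentile itself lay at −3.51, −3.57 and −3.39 untreated on the spike-in scale, and at −4.83 and −4.71 with vehicle. With 4OHT it lay at −4.79, −5.18 and −5.26, so the rises of Lama1 and Dab2 are in their share of the array's signal. The part of these markers in the results was not tested.

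After actinomycin D and vehicle, 106 of the 139 tested genes were lower than in untreated cells and 10 were higher, while 23 were not called. Over all features 15.9% were called lower and 41.5% higher, against 76.3% and 7.19% of the Zfp genes. The median difference was −1.18, with quartiles of −2.07 and −0.60 and values up to 1.25. The largest fall measured above background was 4.63, in Zfp830. Of the called genes, 84 were lower by at least 2-fold (10.4% of all features) and 2 were higher by at least 2-fold (9.86%). On the spike-in scale 136 were lower and 0 higher by the same limma test (136 and 0 also at an unadjusted p under 0.05), beside 65.0% and 0.112% of all features, with a median of −2.46. With normexp background correction, 93 were lower and 21 higher (12.3% and 68.2% of all features), with a median of −0.65. All 139 genes were above background on the 3 untreated arrays, and 21 passed the filter through these arrays alone, so those were selected for their signal there. Among the 111 genes with a probe above background on all 8 arrays, 83 were lower and 10 higher, with a median of −1.06, beside 14.9% and 51.9% of all such features.

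**Figure D1:**
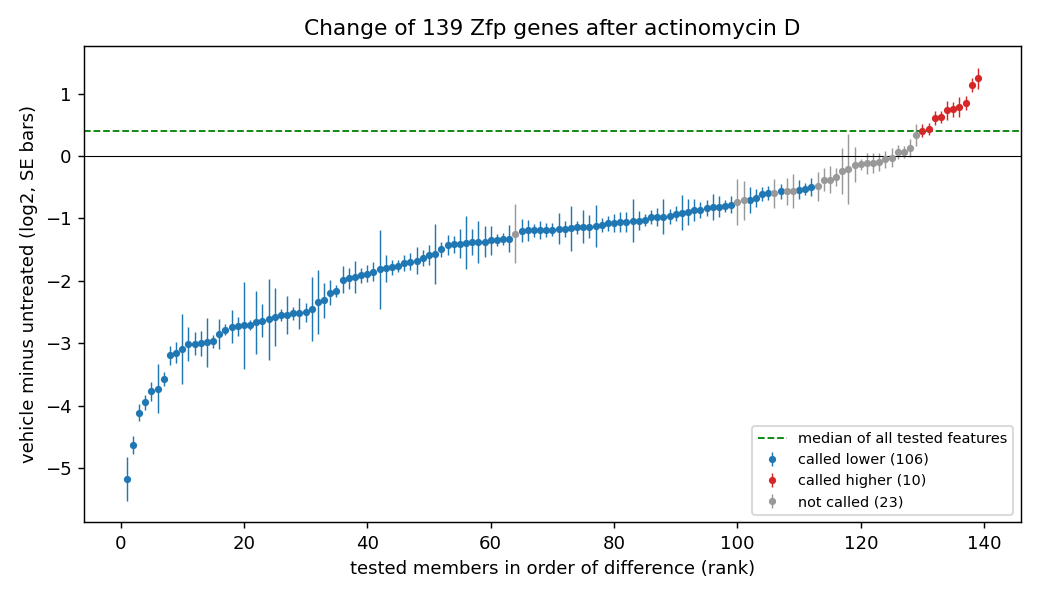
Log2 difference between vehicle and untreated arrays for the 139 tested Zfp genes, in rank order, with SE bars from the limma fit (2 and 3 arrays). Points are coloured by call (106 lower, 10 higher, 23 not called), and the dashed line is the median of all features (0.40). On the spike-in scale all 139 differences were negative.

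The arrays of the groups did not overlap for 117 genes that were lower with vehicle and 11 that were higher, against 20.5% and 51.0% of all features. The 191 genes on the array named Zfp1 to Zfp599 are the most like genes outside the numbers followed here. Of the 177 of these that were tested, 133 were lower and 19 higher, with a median of −1.48. No test was made between these 2 lists.

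The 8 largest falls included genes with clear signal on every array. Of the 8, Zfp689 and Zfp954 had several tested probes, and the others rested on 1 probe each. Zfp830, a protein linked to pre-mRNA splicing, stood at 1.68, 1.59 and 1.44 on the untreated arrays and at −3.08 and −3.05 with vehicle. It fell by 4.63 ± 0.15 (SE, limma adjusted p = 5.5e-06), which is 24.8-fold. The 2 vehicle arrays differed by far less than the fall, and the 4OHT arrays were as low, at −3.07, −3.13 and −3.49.

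Zfp819, a KRAB zinc finger protein that represses retrotransposons in pluripotent cells, stood at 2.07, 1.75 and 1.89 untreated and at −2.06 and −2.36 with vehicle. Its fall was 17.3-fold (log2 difference −4.12 ± 0.14, limma adjusted p = 6.8e-06). With 4OHT it stood at −2.20, −2.29 and −2.14, between the vehicle arrays.

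Zfp689 and Zfp647 fell by 3.95 ± 0.12 and 3.77 ± 0.16. The probe used for Zfp689 stood at 1.64, 1.69 and 1.58 untreated and at −2.41 and −2.22 with vehicle. Its other 2 probes, which were dimmer in untreated cells (−1.72 and −3.50), differed by −0.46 ± 0.25 and −0.36 ± 0.35 and were not called.

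Zfp647 stood at 0.62, 0.65 and 0.78 untreated and at −2.99 and −3.19 with vehicle. Zfp954 fell from 1.16, 1.18 and 1.11 to −2.29 and −2.57, a difference of −3.58 ± 0.11. Zfp668, a protein that stabilises p53, fell from 3.12, 3.08 and 3.01 to 0.10 and −0.35, a difference of −3.20 ± 0.15. In each of these the highest vehicle array lay below the lowest untreated array by more than 2 log2 units.

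The list of the largest falls also holds 2 genes that no vehicle array measured above background. Zfp748 stood at −1.68, −1.85 and −1.75 untreated and its vehicle spots read −7.09 and −6.77. Zfp772 stood at −2.45, −2.03 and −2.32 untreated and read −5.60 and −6.40. Values below background have no order, so these falls are bounds: Zfp748 was at least 13.0-fold and Zfp772 at least 9.10-fold lower. A bound of this kind sets the untreated mean against the lowest signal well above background on each vehicle array, or the gene's own signal where that is higher.

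**Figure D2:**
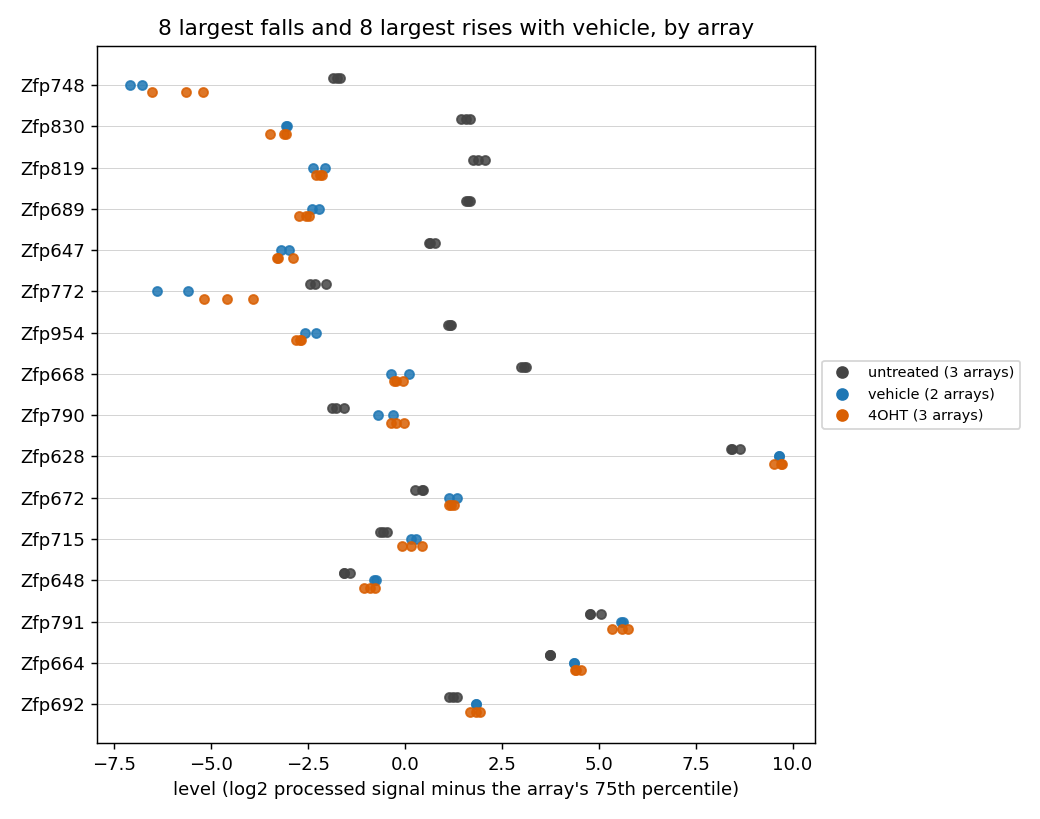
Level on each array (log2, relative to the 75th percentile of its signals) for the 8 largest falls and the 8 largest rises with vehicle, with 3 untreated, 2 vehicle and 3 4OHT arrays as points. The rule that chose the 16 genes required vehicle and untreated points that do not overlap. Zfp748 and Zfp772 were below background on all vehicle and 4OHT arrays. On the spike-in scale the 8 rises were negative.

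The 10 genes called higher with vehicle, which rose in their share of the array's signal, all had negative differences on the spike-in scale, from −0.87 in Zfp609 to −0.03 in Zfp790. Zfp628 stood at 8.65, 8.42 and 8.45 untreated and at 9.64 and 9.64 with vehicle. The difference was 1.14 ± 0.11 on the percentile scale (limma adjusted p = 0.00033) and −0.14 on the spike-in scale. Its other probe, at 0.64 in untreated cells, went the opposite way, at −1.78 ± 0.11.

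Such a conflict between probes of the same gene recurred among the rises. Zfp790 had the largest rise, from −1.88, −1.78 and −1.57 to −0.29 and −0.70 (1.25 ± 0.17), and its second probe gave −3.37 ± 0.29. Zfp672 stood at 0.26, 0.45 and 0.48 untreated and at 1.15 and 1.35 with vehicle (0.85 ± 0.11), and its second probe gave −3.05 ± 0.39. The second probes of Zfp790 and Zfp672 were well above background on no vehicle array, so the sizes of their falls were not measured. In Zfp609, a partner of the Integrator complex, the probes gave 0.41 ± 0.10 and −0.64 ± 0.14. These 4 genes each had 1 probe called lower and another called higher, so no direction can be given for the gene as a whole. Which transcripts the probes detect was not analysed here.

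Only Zfp664 rose on several probes, at 0.63 ± 0.09 and 0.37 ± 0.09 on the percentile scale, against −0.65 on the spike-in scale for the brighter. The other 5 rises, Zfp715, Zfp648, Zfp791, Zfp692 and Zfp663, rested on 1 tested probe each. Zfp791 stood at 5.06, 4.77 and 4.78 untreated and at 5.57 and 5.63 with vehicle (0.73 ± 0.15, spike-in −0.55). Zfp715 stood at −0.46, −0.57 and −0.64 untreated and at 0.29 and 0.17 with vehicle (0.78 ± 0.16, spike-in −0.49). Zfp648 went from −1.42, −1.56 and −1.58 to −0.79 and −0.74 (0.75 ± 0.12, spike-in −0.53). In all 3 the vehicle arrays lay above every untreated array on the percentile scale, as the rule that chose them required.

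When each of 33013 probes was fitted on its own, 90 of the 139 genes had every tested probe lower and 6 every probe higher. Of all single probes, 16.0% were lower and 42.1% higher, which is a share of probes and not of genes. The share of all genes with every probe called was not computed. Several probes were tested for 54 genes, and in 24 of these all probes were lower. The probes of 10 genes differed in sign and those of 22 genes differed by over 1 log2 unit. Zfp708, a KRAB protein that represses retroelements, had 1 probe at −0.91 ± 0.28 and another at −4.73 ± 0.27. Without vehicle replicate 2 the former gave −0.43 and was not called. The latter was well above background on no vehicle array, so the size of its fall was not measured. Zfp637, by contrast, had 3 probes between −2.97 and −2.90.

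**Figure D3:**
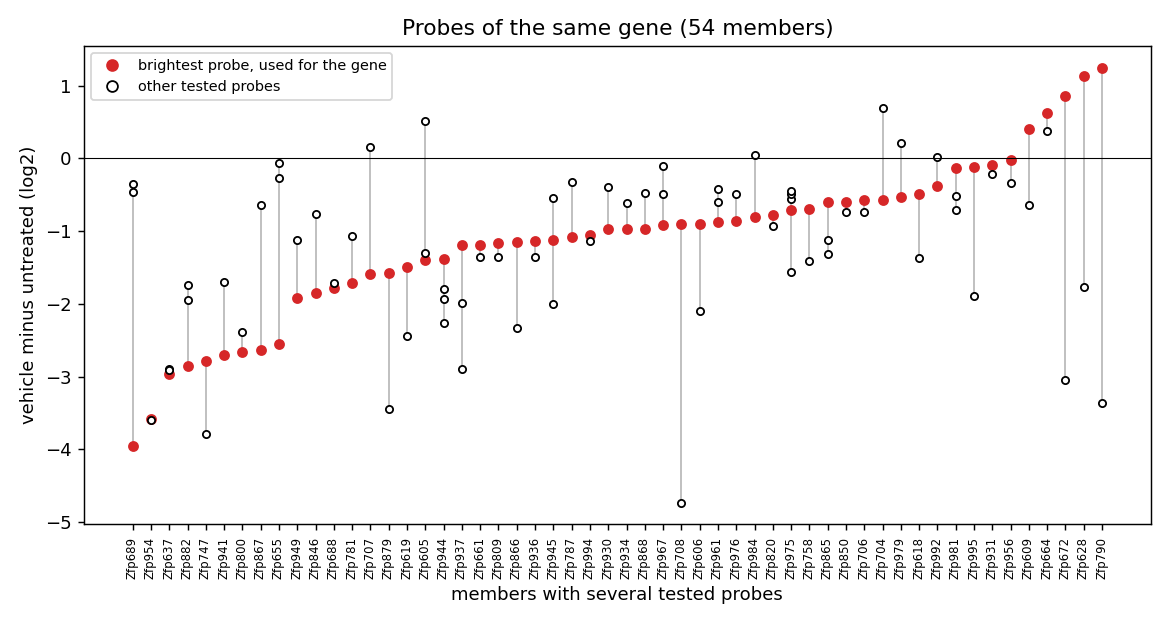
Difference between vehicle and untreated (log2) for each tested probe of the 54 Zfp genes with several, with the brightest probe, used for the gene, in red and the others as open circles. A grey line joins the probes of 1 gene, and the lines of Zfp609, Zfp628, Zfp672 and Zfp790 cross 0 with a call on either side.

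Between the falls and the rises lay the 23 genes that were not called. Zfp687, which works in a complex with Zmynd8, stood at 2.42, 2.29 and 2.30 untreated and at 2.35 and 2.46 with vehicle (0.07 ± 0.09, limma adjusted p = 0.55). Zfp638, an RNA-binding protein also tied to silencing of retroviral DNA, stood at 3.42, 3.42 and 3.39 untreated and at 3.33 and 3.23 with vehicle (−0.13 ± 0.09). Zfp658 gave 0.06 ± 0.11 (spike-in −1.21), Zfp995 −0.11 ± 0.17 and Zfp981 −0.14 ± 0.28. On the probes used, the groups differed in these genes by less than 2 SE. Other probes fell: a second probe of Zfp995 gave −1.90 ± 0.12 and was called lower. The other probes of Zfp981 gave −0.52 ± 0.16 (called lower) and −0.71 ± 0.28 (not called). On the spike-in scale Zfp687 and Zfp638 gave −1.21 and −1.41, beside the median of all features of −0.88 on that scale.

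Other genes of silencing and corepression had smaller falls than Zfp819. Zfp809, which silences retroviral DNA in embryonic stem cells, stood at 0.26, 0.43 and 0.24 untreated and at −0.55 and −1.15 with vehicle (−1.16 ± 0.25, adjusted p = 0.0061). Zfp932, a KRAB repressor of retroelements, stood at 2.55, 2.51 and 2.53 and fell to 1.13 and 1.25 (−1.33 ± 0.10). Zfp644, a partner of the G9a and GLP methyltransferases, fell by 1.76 ± 0.10, and the corepressor partner Zfp652 by 0.61 ± 0.11. Zfp746, known as PARIS and a repressor of the PGC-1α gene, fell by 1.94 ± 0.26. Zfp711, an X-linked partner of Phf8, fell by 1.68 ± 0.22. Zfp703, a Groucho-associated corepressor, differed by −1.38 ± 0.33, and by −1.20 without vehicle replicate 2, where it was not called. In all 7 of these genes the difference exceeded 4 SE.

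Of the remaining genes on the list of named genes, Zfp667 fell by 1.98 ± 0.22, Zfp646 by 1.63 ± 0.13, Zfp639 by 1.19 ± 0.11, Zfp825 by 1.16 ± 0.13 and Zfp710 by 0.80 ± 0.09. Zfp600 (−0.11 ± 0.16), Zfp738 (−0.24 ± 0.37) and Zfp771 (−0.33 ± 0.15) were not called. Zfp710 stood at 5.64, 5.65 and 5.55 untreated and at 4.81 and 4.82 with vehicle. Zfp738 stood at −4.05, −3.58 and −3.56 untreated and at −3.40 and −4.55 with vehicle, so that its groups overlapped.

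The proteins that KRAB zinc fingers work with formed a list of 35 repression partners, all tested. It also holds Zfp57, which by its symbol is among Zfp1 to Zfp599 as well (−0.28 ± 0.14, not called). With vehicle 22 of the 35 were higher (62.9%) and 6 lower (17.1%), with a median of 0.70. Over all features 41.5% were higher and 15.9% lower, so the share of partners lower was near that of all features. By spike-in scaling 0 were higher and 20 lower (median −0.58), a smaller share lower than the 65.0% of all features on that scale. Trim28, the shared corepressor, differed by 0.99 ± 0.12 (spike-in −0.29), and Setdb1 by 0.37 ± 0.10 (spike-in −0.91). The 6 lower genes were Morc3, Atf7ip, Daxx, Smarcad1, Trim33 and Suv39h1. Atf7ip, the partner that stabilises Setdb1, fell by 0.99 ± 0.13 and Morc3, which silences retroelements, by 1.14 ± 0.12. The range of the partners was −1.14 to 1.20, narrower than that of the Zfp genes.

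Of the 139 Zfp genes, 12 were well above background on all untreated arrays and on no vehicle array (8.63%), 15 on no 4OHT array (10.8%) and 10 on neither (7.19%). The same held for 5.27%, 6.88% and 3.93% of all features above background on the untreated arrays. The 10 genes on neither were Zfp748, Zfp772, Zfp786, Zfp712, Zfp983, Zfp677, Zfp879, Zfp839, Zfp608 and Zfp870, and Zfp773 and Zfp623 were lost with vehicle but measured on 1 4OHT array each. In the opposite sense, Zfp709, Zfp750, Zfp759, Zfp784 and Zfp800 were measured on 1 vehicle array and on no 4OHT array. Genes above background on all untreated and vehicle arrays and on no 4OHT array numbered 0 (1.07% of all features). By the looser flag for positive and significant signal the counts were 2, 1 and 1. Without vehicle replicate 1, 21 genes were on no vehicle array.

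The bound on these falls depended on the starting signal. Zfp786 stood at −1.55, −1.21 and −1.56 untreated and was at least 8.55-fold lower with vehicle and 11-fold with 4OHT. Zfp773 and Zfp623 were at least 8.01-fold and 7.93-fold lower with vehicle, and Zfp712 at least 5.83-fold. Zfp608, a paralogue of Zfp609, stood only 1.02 log2 units above the lowest signal well above background on the vehicle arrays, so its bound was 2.02-fold. Zfp870 differed by −0.74 ± 0.37 and was not called (adjusted p = 0.13). With normexp, Zfp608 gave 0.50, Zfp677 0.33 and Zfp983 0.31, so their direction turned. The call of Zfp983 was lost without vehicle replicate 1 (−1.74, adjusted p = 0.073).

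Across the 139 genes this room to fall ran from 1.02 to 14.0 log2 units, and 7 genes had under 2. It is an upper limit, since a probe can drop out above the lowest signal well above background. Zfp623, with a room of 4.15, read −4.32 and −4.28 with vehicle and was above background on neither array. By untreated signal, the median difference was −1.38 in the 27 genes under −2, −1.53 in the 36 between −2 and 0, −1.19 in the 39 between 0 and 2, and −0.81 in the 37 over 2. Over all features the medians in the same ranges were 0.31, 0.32, 0.30 and 0.65. Across the 139 genes, which are not independent replicates and share the same arrays, Pearson's r between untreated signal and difference was 0.253 and Spearman's rho 0.255. The untreated values enter both measures. Probe signals also reflect the probe, so they give no order of abundance between genes.

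**Figure D4:**
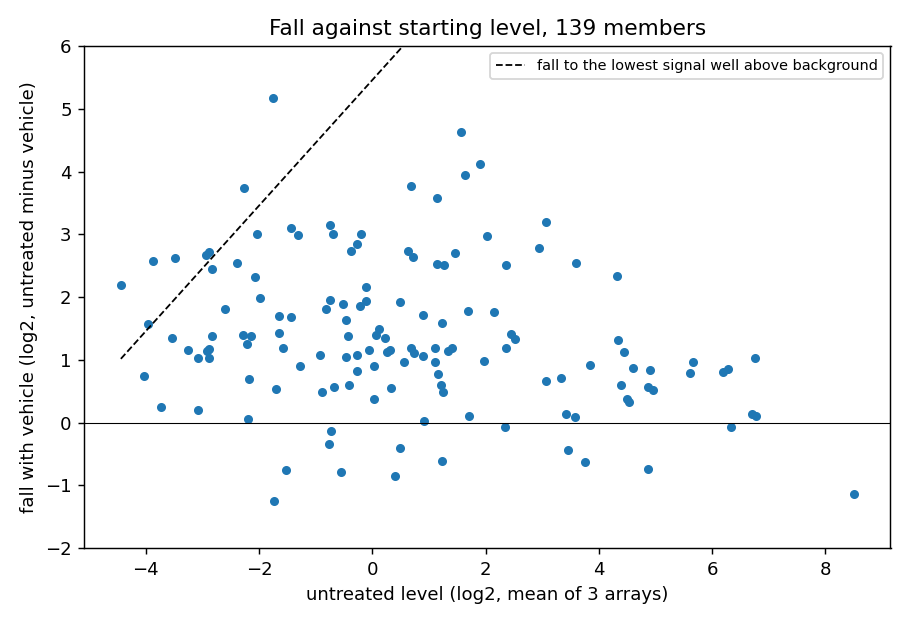
Fall with vehicle (untreated minus vehicle, log2) against the untreated level (mean of 3 arrays) for the 139 tested Zfp genes. The dashed line is a fall to the lowest signal well above background on the vehicle arrays, and points above it are measured below that signal. Some points under the line, such as Zfp623, were also above background on no vehicle array. Zfp830 and Zfp819 are the falls over 4 log2 units that were measured above background, while Zfp748 lies above the line. On this percentile scale points under 0 are genes that were higher with vehicle (on the spike-in scale none is).

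Genes that lie side by side differed in how alike their losses were. In the gene order of GRCm38.p6, 65 tested genes lay in 25 runs of neighbouring Zfp600 to Zfp999 genes, with a median of −1.05, against −1.22 in the 74 with no such neighbour. Zfp747, Zfp764 and Zfp768, neighbours on chromosome 7, lay between −2.78 and −2.52, and Zfp773 and Zfp954, also there, at −3.00 and −3.58. These values are of the probe used for each gene, and a second probe of Zfp747 gave −3.79 ± 0.11, outside the range of those 3 genes. Zfp773 was well above background on no vehicle array, so the size of its fall was not measured (at least 8.01-fold). Zfp672 and Zfp692 on chromosome 11 gave 0.85 and 0.61 on their brightest probes and −0.42 and −0.67 on the spike-in scale. Other runs spread widely: Zfp658, Zfp719 and Zfp819 on chromosome 7 ranged from −4.12 to 0.06 (Zfp658, −1.21 on the spike-in scale). Chromosome 7 held 33 of the tested genes (median −1.38, 26 lower) and chromosome 17 held 21 (median −1.12, 18 lower).

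The 11 genes on chromosome 4 had a median untreated level of 4.34 and a median difference of −0.67, with 7 lower and 0 higher. Transcript and probe sequences of these genes were not compared. Their probes may read more than 1 gene, and probe specificity was not tested. Zfp987 and Zfp982, both tested, are shown around the transcription start. Their RefSeq promoter windows (GRCm38.p6, 250 bases before to 50 after the start, plus strand) are chr4:146097062-146097361 and chr4:147492167-147492466. They share 232 of 300 letters when set against each other position by position with no gaps. Below, capitals mark the letters that differ.
Zfp987: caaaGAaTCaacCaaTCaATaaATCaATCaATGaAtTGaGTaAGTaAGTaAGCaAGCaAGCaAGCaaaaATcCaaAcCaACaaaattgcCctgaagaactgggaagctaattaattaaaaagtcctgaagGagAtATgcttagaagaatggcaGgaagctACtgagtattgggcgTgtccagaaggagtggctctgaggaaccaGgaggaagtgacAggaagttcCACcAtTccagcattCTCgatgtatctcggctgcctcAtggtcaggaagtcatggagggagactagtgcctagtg
Zfp982: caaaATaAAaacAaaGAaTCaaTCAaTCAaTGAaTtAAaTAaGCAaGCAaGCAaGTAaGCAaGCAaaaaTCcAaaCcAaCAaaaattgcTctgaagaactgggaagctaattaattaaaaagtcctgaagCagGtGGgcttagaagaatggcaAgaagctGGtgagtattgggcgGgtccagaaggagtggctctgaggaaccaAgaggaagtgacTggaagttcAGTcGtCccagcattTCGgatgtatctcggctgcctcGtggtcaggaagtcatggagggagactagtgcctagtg

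Zfp987 stood at 4.28, 4.45 and 4.29 untreated and at 3.37 and 2.66 with vehicle (−1.32 ± 0.22). Zfp982 stood at 2.94, 3.06 and 3.19 untreated and at 2.58 and 2.20 with vehicle (−0.67 ± 0.15). Both fell, and in both the 4OHT arrays lay between untreated and the lower vehicle array, at 3.41 to 3.72 and 2.51 to 2.71. Of the tested genes, 121 matched a promoter in the RefSeq table, with 149 promoters. These had a median of 12 CpG dinucleotides in 300 bases, against 7 over all 32851 promoters. The letters TATAA, on either strand, were in 10.7% of the Zfp promoters and in 24.9% of all. A match to these letters is a description of the sequence and shows no binding.

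4OHT differed little from vehicle in most of the genes. By limma, 6 of 139 were lower with 4OHT and 1 higher, beside 2.58% and 0.923% of all features, and the median difference was −0.06 (all features −0.05). At an unadjusted p under 0.05 the counts were 16 and 20, beside 12.8% and 6.33% of all features. The arrays did not overlap for 29 genes that were lower and 27 that were higher (24.8% and 13.5% of all features), and 3 and 0 genes were called at 2-fold or more (1.02% and 0.274%). The median turned to 0.06 with median scaling and to 0.03 without vehicle replicate 1.

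Zfp706, a small zinc finger protein that acts against self-renewal and holds back Klf4, gave the clearest difference between the treated groups. It stood at 4.84, 4.84 and 4.95 untreated, at 4.46 and 4.16 with vehicle, and at 3.19, 3.06 and 3.04 with 4OHT. The arrays of the 3 groups did not overlap. The 4OHT arrays were lower than vehicle by 1.22 ± 0.12 (2.32-fold, limma adjusted p = 0.0083), the second probe gave −1.30 ± 0.12, and on the spike-in scale the first gave −1.52. The call was kept when any 1 array was left out. It was lost when replicate number entered the fit as a block, where no Zfp gene was called between 4OHT and vehicle.

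Zfp622, a factor of large ribosomal subunit maturation, stood at 6.79, 6.80 and 6.66 untreated, at 5.71 and 5.74 with vehicle, and at 4.89, 4.83 and 4.93 with 4OHT. It was lower with 4OHT by 0.84 ± 0.09 (1.79-fold, adjusted p = 0.010). Without vehicle replicate 1 the difference was −0.85 and its adjusted p 0.050, so it was not called. As in Zfp706, the 3 groups lay apart, with vehicle in between.

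Zfp963 stood at −3.09 and −3.08 with vehicle and at −4.64, −4.10 and −4.27 with 4OHT (−1.25 ± 0.16, adjusted p = 0.016). It was well above background on only 1 of the 3 4OHT arrays, so the size of its fall is uncertain. Zfp777 went from 0.99 and 1.02 to 0.27, 0.19 and 0.33 (−0.74 ± 0.11), and Zfp688, with −0.06 and −0.12 against −0.62, −0.78 and −0.92, by −0.69 ± 0.12. The second probe of Zfp688 gave −0.41 ± 0.10 and was not called. The call of Zfp963 was lost when untreated replicate 3, vehicle replicate 1 or vehicle replicate 2 was left out, and the calls of Zfp777 and Zfp688 (adjusted p = 0.021 and 0.034) were lost without most single arrays. Leaving out 1 array at a time left 2 to 5 genes lower. In all 3 genes every 4OHT array lay below both vehicle arrays, as the rule that chose them required.

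Zfp709, outside the rule for naming and picked here after its values were seen because it is the sixth gene called lower, stood at −2.22 and −4.35 with vehicle and was on no 4OHT array above background. Its adjusted p was 0.039, but 1 of the 2 vehicle arrays was above background, so no fold is given. Its vehicle arrays lay on either side of the untreated ones, at −3.09, −3.24 and −2.89. Zfp788, the gene called higher with 4OHT, stood at −4.03 and −4.10 with vehicle and at −3.67, −3.51 and −3.49 with 4OHT (0.51 ± 0.10, adjusted p = 0.044). That call was lost under most alternatives, among them leaving out any single array.

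**Figure D5:**
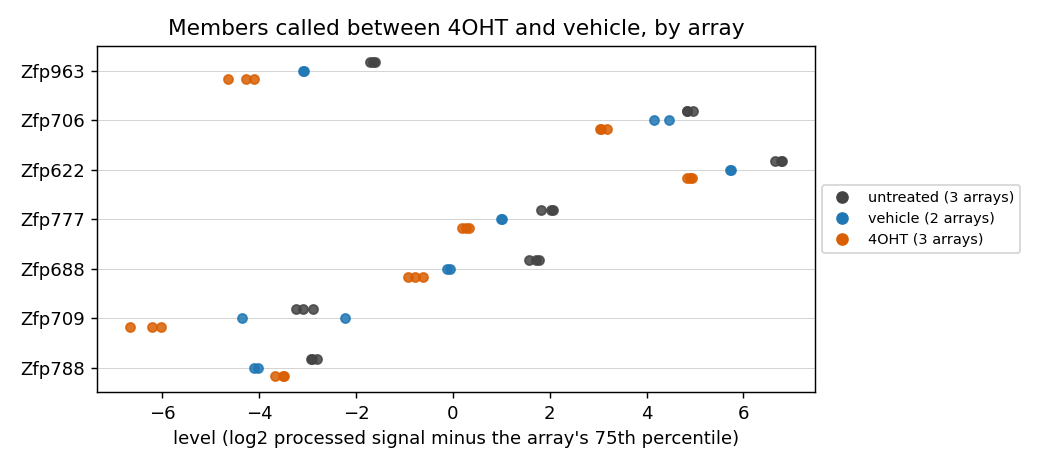
Level on each array (log2, relative to the 75th percentile of its signals) for the 7 Zfp genes called between 4OHT and vehicle. Vehicle and 4OHT points are apart in all 7, which the naming rule required of all but Zfp709. The 4OHT points lie below the vehicle points in Zfp963, Zfp706, Zfp622, Zfp777, Zfp688 and Zfp709 and above them in Zfp788. Zfp709 was well above background on 1 vehicle array and no 4OHT array, and Zfp963 on 1 4OHT array. Points below background have no order among themselves.

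Set against untreated cells, the 4OHT arrays gave 107 genes lower and 12 higher, beside 18.7% and 41.0% of all features, and their median was −1.36. With spike-in scaling 138 were lower and 0 higher (median −2.94), where 93.4% of all features were lower and 0.102% higher. At least 2-fold lower were 88 and at least 2-fold higher 2 (12.1% and 8.47% of all features), and the arrays did not overlap for 114 lower and 12 higher genes (21.3% and 45.1%). This comparison shares its untreated arrays with that of vehicle, so these are not independent. Zfp830 differed by −4.80 ± 0.13 and Zfp819 by −4.11 ± 0.12. Zfp689 stood at −2.72, −2.54 and −2.47 with 4OHT, a difference of −4.21 ± 0.10. Zfp706 was lower by 1.78 ± 0.11 and Zfp622 by 1.87 ± 0.08. Zfp790 gave 1.54 ± 0.15 and Zfp628 1.15 ± 0.10 on the brightest probes, and −0.04 and −0.44 on the spike-in scale. Of the repression partners, 7 were lower and 21 higher against untreated, and 34 were lower and 0 higher on the spike-in scale, near the share of all features there. Between 4OHT and vehicle 0 of the 35 partners were called by limma, with 5 lower and 1 higher at an unadjusted p under 0.05.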

How the data were processed

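Total RNA of 8 cultures was amplified and labelled, and hybridised to single-colour Agilent mouse arrays. Per the labels the dye was Cy5, while the files hold the green channel. The deposited intensity of a spot is linear, background-subtracted output (processed signal) of Feature Extraction 11.0.1.1, per the file headers, which also give flags (other values) for spots well above background, saturated or outlying. The deposited value table equals it within a relative difference of 0.005, uncentred, with column medians of 21.2, 45.0 and 24.6 (untreated), 12.2 and 13.9 (vehicle) and 13.5, 11.3 and 12.4 (4OHT). The file headers name mm9, and names came from a RefSeq table of GRCm38.p6.

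The 3671 control spots and outlier spots were left out (0 spots were saturated), spots of a probe were averaged, and 466 of 55681 probes had no value on some array. Log2 intensity minus the array's 75th percentile, over 59305 spots, was fitted with limma 3.58.1 in R 4.3.3 (lmFit, eBayes, 3 groups in 1 fit, 5 residual degrees of freedom). Features had to exceed background clearly on all arrays of 1 group or more, with the brightest probe per symbol. P-values are two-sided and adjusted over 28493 features. The script was tested on simulated data. The number of arrays limits the precision, and the median SE was 0.17. The design text calls the samples 3 biological replicates per condition, 2 vehicle arrays are used here, and p-values measure the spread between these samples.

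The genes named are the 8 largest falls and rises that were called with no overlap between arrays (per comparison of vehicle with untreated and of 4OHT with vehicle), the 8 highest bounds, a fixed list of 30 Zfp genes (25 tested), Trim28 and Setdb1. Other genes named (such as Zfp637, Zfp658, Zfp981, Zfp995, Zfp982, Zfp987, further genes below background, neighbours and the partners that fell) were picked after their values were seen. Members, lists and rules were chosen with earlier results of these data known. Zfp640, Zfp740, Zfp804a and Zfp853 are on that list and were not tested. Alternatives were other scalings (array median, quantile, none, 8 of 10 spike-in probes), normexp with an offset of 50 on median signals, other filters and fits, a replicate block, and each array left out. Spike-in controls are meant to enter before labelling, which the labels do not describe. Protein sequences were not analysed here.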

Additional observations from a re-analysis of the deposited data

How the results depend on the processing

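The fall of most Zfp genes against untreated kept its direction throughout: 83 to 136 genes were lower with vehicle and 83 to 138 with 4OHT over all alternatives. The number tested differed: with the filter over all 8 arrays 83 of 111 were lower in both, beside 14.9% and 16.7% of all features. With spike-in scaling 136 and 138 of 139 were lower, beside 65.0% and 93.4%. Other counts in this section are given without the share of all features. The median difference from untreated moved to −2.28 (vehicle) and −2.42 (4OHT) with no scaling, −2.46 and −2.94 with spike-in scaling, and −0.65 and −0.68 with normexp, and ranged from −1.39 to −1.09 for vehicle with 1 array left out. The count higher with vehicle was 2 at a 2-fold minimum, 6 with the mean of probes, 6 with quantile normalization, 5 with median scaling, 21 with normexp, and 0 with no scaling or spike-in scaling. It was 6 where every probe of the gene had to be called, an alternative chosen after seeing the data. The count higher with 4OHT than untreated was 2 at a 2-fold minimum, 23 with normexp, 8 with the mean of probes, and 0 with no scaling or spike-in scaling.

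Between 4OHT and vehicle the lower count was 3 at a 2-fold minimum, 2 with only the groups compared, 9 with trended and robust eBayes, and 1 with median scaling, no filter or no scaling. It ran from 2 to 5 with 1 array left out. The higher count was 4 with the filter over all 8 arrays and with trended and robust eBayes, 2 with the mean of probes and with normexp, and 0 at a 2-fold minimum, with no filter, no scaling, only the groups compared, quantile or spike-in scaling. It ran from 0 to 2 with 1 array left out. The median moved to −0.36 with spike-in scaling, reversed to 0.058 with median scaling, and ran from −0.10 to 0.031 with 1 array left out. The cause of these shifts was not tested. With the positive and significant flag, 2, 1 and 1 genes were detected on no vehicle array, on no 4OHT array and on neither, and 12 to 21 were above background on no vehicle array with 1 array left out.

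Replicate numbers are shared between groups, and the labels do not say that a number marks a shared culture. The deviations of same-numbered arrays correlated at 0.364 and 0.222 between vehicle and 4OHT, at 0.108 for the third untreated and 4OHT arrays, and from −0.191 to −0.027 in the other pairs. Not every pair exceeded 0.1, so the numbers were not taken to pair the samples. With the replicate block, 107 and 106 genes were lower and 10 and 12 higher than untreated with vehicle and 4OHT, and 0 were lower and 0 higher with 4OHT than vehicle.

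Of the named genes against untreated, these reversed with vehicle. With spike-in scaling Zfp609 gave −0.87, Zfp628 −0.14, Zfp648 −0.53, Zfp664 −0.65, Zfp672 −0.42, Zfp687 −1.21, Zfp692 −0.67, Zfp715 −0.49, Zfp790 −0.0305 and Zfp791 −0.55. With no scaling Zfp609 gave −0.69, Zfp648 −0.35, Zfp664 −0.47, Zfp672 −0.24, Zfp687 −1.03, Zfp692 −0.49, Zfp715 −0.31 and Zfp791 −0.37. With the mean of probes Zfp609 gave −0.12, Zfp628 −0.32, Zfp672 −1.10 and Zfp790 −1.06. With normexp Zfp608 gave 0.50, Zfp677 0.33, Zfp687 −0.21, Zfp738 0.56, Zfp800 0.0005 and Zfp983 0.31, and with quantile normalization Zfp687 gave −0.13. With 1 array left out Zfp600 ran from −0.33 to 0.11 and Zfp738 from −0.82 to 0.33. Of the other values of single genes under the alternatives, 828 kept direction and side of the threshold, 83 were no longer called and 14 became called. A low signal limits what can be seen. Even to the lowest signal well above background on the vehicle arrays, 7 genes had under 2 log2 units of room to fall.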
